A study of Mus musculus with 12 samples.

Results

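The DNA replication machinery was described through 44 genes that encode origin licensing factors, the replicative helicase, the DNA polymerases with their sliding clamp, and enzymes of nucleotide supply. The genes were listed by name, and 44 of the 44 listed were found in both tables of normalized counts, which share 10080 genes. The cells were Ba/F3, a mouse lymphoid line that grows on interleukin-3, transduced with a retroviral vector carrying human RPL10 cDNA while an shRNA lowered the cells' own Rpl10. The study compared the leukemia-associated R98S variant of this ribosomal protein with the WT protein, to see how mRNA levels and their translation differ. Each genotype was represented by 3 clones, numbered 11, 13 and 35 for R98S and 28, 29 and 36 for WT, and each clone gave 1 ribosome footprinting library and 1 matching mRNA library, 12 libraries in all. Every culture had received cycloheximide at 100 µg/ml for 5 min. Each clone grew from a single cell, the added RPL10 is human and vector-driven, and the endogenous gene was knocked down rather than deleted. With 3 clones per genotype, a property of a clone that happens to follow genotype cannot be told apart from an effect of the variant.

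Ribosome footprinting reads come from mRNA fragments covered by ribosomes (RPF), and translation efficiency (TE) is the RPF value of a gene divided by its mRNA value in the same clone. Values are normalized counts, that is, reads per gene divided by a size factor for each library. Since the 2 tables were normalized separately, a TE ratio has no absolute scale and serves only for comparison between clones or genes. Depth ran from 6617457 reads in the mRNA library of WT clone 28 to 23136595 in that of WT clone 36, and the other mRNA libraries held at least 20576796. RPF libraries held between 3477723 reads (R98S clone 35) and 10883086 (R98S clone 11). Differences are given as log2 of R98S over WT, with a limma p-value adjusted over all genes tested and a threshold of 0.1. The smallest two-sided p that an exact permutation test allows with 3 clones against 3 is 0.1, so for single values the text says only whether the genotypes overlap.

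The labelled cell type was compared with its markers. Of the genes listed for Ba/F3 and pro-B cells, 6 were above 0 in each of the 6 mRNA libraries. These were the interleukin-3 receptor genes Il3ra, Csf2rb and Csf2rb2, the leukocyte surface gene Ptprc, and the B-cell receptor components Cd79a and Cd79b. Csf2rb was the most abundant, with a mean of 46671 normalized counts. Rag1 and Pax5 were at 0 in all 6 mRNA libraries, and Vpreb1, Igll1, Rag2 and Ebf1 reached at most 2.69 normalized counts in any of them. The mRNA counts of Csf2rb were 64432, 52827 and 62753 in R98S clones 11, 13 and 35, and 21027, 48871 and 30118 in WT clones 28, 29 and 36, with no overlap. The mRNA of Csf2rb2, Cd79a and Cd79b was likewise above WT in every R98S clone, while that of Il3ra overlapped. Ptprc had mRNA of 5001, 4375 and 3802 in R98S clones and 4871, 11845 and 7611 in WT clones, which overlapped. Its RPF counts were 3284, 2615 and 3271 for R98S and 6877, 8987 and 5365 for WT, with each R98S clone below each WT clone. The mast cell and basophil list, led by Cpa3, had 3 of 4 genes above 0 in every mRNA library, with Fcer1a at 0 in 5 of 6. Its sums were 738, 287 and 1096 in the R98S clones and 139.6, 214 and 98.7 in the WT clones, without overlap. Cpa3 alone carried this, since Ms4a2 and Mcpt8 overlapped and in both of them R98S clone 13 lay below WT clone 28. The T cell list, led by Cd3d, had 2 of 5 genes above 0 in every library and summed to 86.5, 65.5 and 49.9 in R98S clones and 48.3, 7.42 and 14.9 in WT clones. Cd3d was higher in each R98S clone, at 73.8, 63.1 and 43.8 against 29.5, 1.65 and 10.97 in WT clones. Cd3g overlapped, at 8.73, 0.82 and 0.86 for R98S and 16.1, 4.95 and 3.13 for WT, and so did Cd3e. Cd4 and Cd8a reached at most 1.59 in any library and were at 0 in R98S clone 35 and in all 3 WT libraries. Sums of the macrophage list lay between 99.2 and 186, those of the erythroid list between 191 and 394, and those of the stroma list reached at most 12.7. The part of these marker differences in the results on replication genes was not tested.

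Replication starts when the origin recognition complex, with Cdc6 and Cdt1, loads the ring of MCM proteins onto DNA, a step that is confined to the time before S phase. Cdc45 and the GINS complex then turn MCM into an active helicase, primase lays down primers, and the delta and epsilon polymerases extend them while held on DNA by the PCNA clamp. Many of these genes are transcribed in step with the cell cycle through E2F factors, and proliferating lymphoid cells express them strongly.

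In most of these genes no difference between the genotypes passed the test. In mRNA, 1 of the 44 members was higher in R98S clones, the clamp loader subunit gene Rfc2, against 3.03% of all 11344 genes tested, and 1 was lower, the origin recognition gene Orc6, against 3.91%. In RPF, Orc6 was lower (1 of 44, against 4.62% of 9580 genes) and no member was higher (0 of 44 by limma, against 3.13%). For TE, limma called no member in either direction, against 0% of 9043 genes higher and 0.0221% lower. The RPF count of members higher and both TE counts were also 0 with DESeq2 and with edgeR. Unadjusted p-values under 0.05 were found for 5 of 44 members in mRNA (all genes 17.9%), 7 in RPF (20.3%) and 3 in TE (7.85%). Values of R98S and WT clones were fully separate for 11 members in mRNA (all genes 23.5%), 7 in RPF (25.3%) and 8 in TE (14.8%). The shares of members called lie below those of all genes in mRNA and RPF, so the calls were not concentrated among the members. Leaving out 1 clone moved the number of members at an unadjusted p under 0.05 in mRNA between 2 (without WT 36) and 9 (without WT 29), and in RPF between 4 (without WT 28) and 11 (without WT 36). The mRNA calls became 0 members without R98S 11 or R98S 13, and the RPF calls 3 without R98S 35, where Orc2 was higher and Rfc1 lower. Over all genes, mRNA calls went from 344 higher and 443 lower to 122 and 194 without R98S 11. They went to 137 and 180 without R98S 13. RPF calls over all genes went from 300 and 443 to 510 and 646 without R98S 35. A p that misses the threshold does not show that a gene was unchanged. Since the libraries come from bulk cultures, a different share of cells in S phase and a different RNA level within cells cannot be told apart.

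The median log2 difference of the 44 members was 0.06 in mRNA (all genes 0.01), -0.14 in RPF (all genes 0.01) and -0.21 in TE (all genes -0.00). In mRNA 28 members lay above 0 and 16 below (48.6% of all genes below). Without R98S clone 13, or without WT clone 36, 22 members lay below 0 in mRNA. In RPF 15 lay above 0 and 29 below, or 23 below with scaling to total reads, and in TE 9 above and 35 below. The share of genes below 0 was 79.5% among members and 50.2% among all genes for TE, and 65.9% against 48.8% for RPF. Members are not replicates of the genotypes, so these shares are a description.

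**Figure D1:**
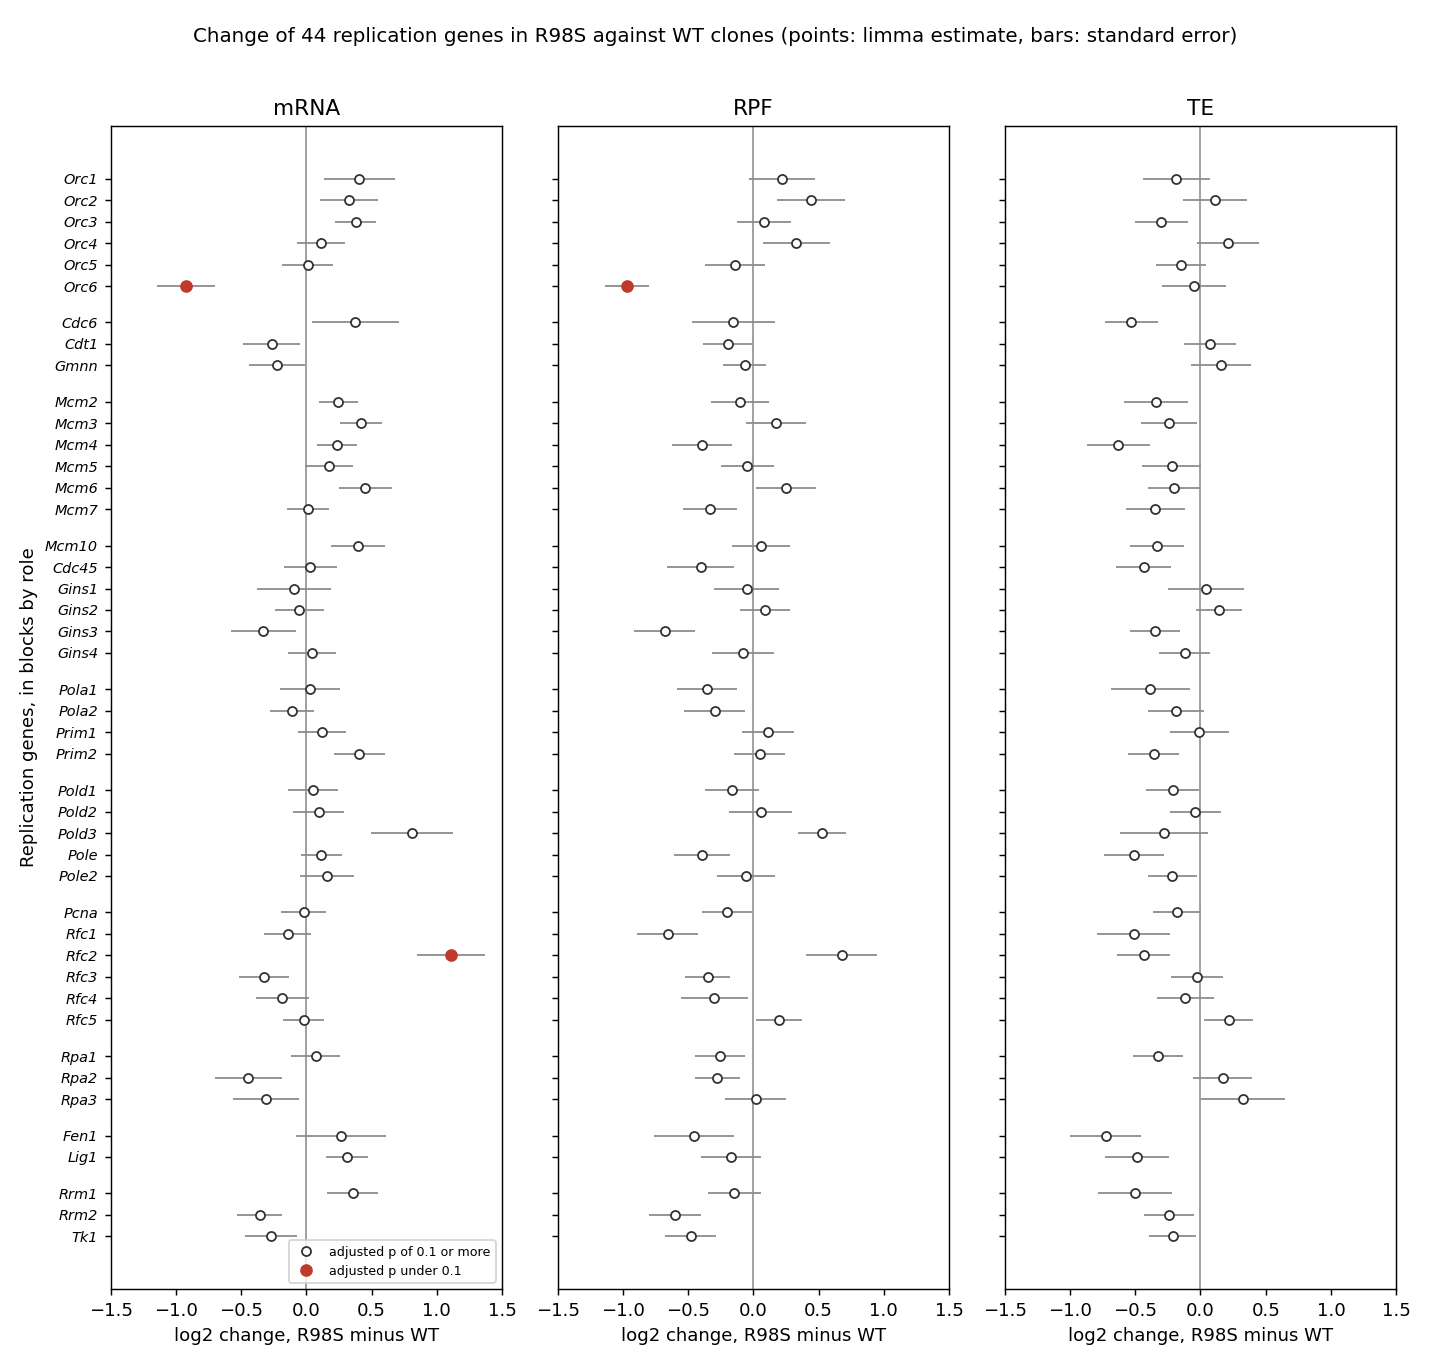
Log2 difference between R98S and WT clones (x axis) for the 44 replication genes (y axis, in blocks by role) in mRNA, RPF and TE; points are limma estimates, bars their standard errors, and filled points have an adjusted p under 0.1. The filled points are Orc6 and Rfc2 in mRNA (-0.92 and 1.11) and Orc6 in RPF (-0.97), and 35 of the 44 TE estimates lie left of 0 (30 to 38 over 17 alternatives).

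The origin recognition complex marks the sites where replication can begin. Orc6 (chr8:85299632-85308278, + strand, GRCm38 with GENCODE release 21), which encodes its smallest subunit, fell in R98S clones in both assays. Its normalized mRNA counts were 1192, 1295 and 1598 in R98S clones 11, 13 and 35, and 3496, 2246 and 2140.1 in WT clones 28, 29 and 36. Each R98S clone lay below each WT clone, and WT clone 28 was the highest. The means were 1362 ± 211 and 2627 ± 754 (SD, n = 3 each). The limma log2 difference, taken on means of log2 values, was -0.92 (SE 0.22, limma adjusted p = 0.0538), a fold of 0.528 on that scale. Orc6 RPF counts were 362, 375 and 376 in R98S clones 11, 13 and 35, and 705, 805 and 681 in WT clones 28, 29 and 36. The R98S clones were nearly alike and all under the lowest WT clone, with a log2 difference of -0.97 (SE 0.17, limma adjusted p = 0.013). The TE of Orc6 overlapped between the genotypes, at 0.303, 0.29 and 0.235 against 0.202, 0.358 and 0.318 (log2 difference -0.05, -0.30 without WT clone 28 to 0.12 without WT clone 29, limma adjusted p = 0.965).

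The RPF call for Orc6 passed in 16 of 16 alternatives, with adjusted p from 0.000105 to 0.0615 in limma, edgeR or DESeq2. The mRNA call passed in 13 of 16, with adjusted p from 0.00317 to 0.222. It missed the threshold without R98S clone 11 (limma adjusted p = 0.222) and without R98S clone 13 (0.188), with log2 differences of -0.83 and -0.89. It also missed it when the median of each chromosome was removed from each library (-0.71, limma adjusted p = 0.138). Orc6 lies on chromosome 8 with Cdt1, Mcm5, Gins2, Gins3 and Gins4. The 603 genes of that chromosome tested in mRNA had a median difference of -0.22 in mRNA and -0.19 in RPF. The part of this chromosome-wide shift in the difference of Orc6 was not tested beyond that alternative.

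The promoter of Orc6 is printed because Orc6 is the member past the threshold in both assays. The 250 bases before its start (chr8:85299382-85299631, + strand, RefSeq GRCm38.p6) are given 5′ to 3′, and capitals mark a CCAAT box read on the opposite strand.
Orc6: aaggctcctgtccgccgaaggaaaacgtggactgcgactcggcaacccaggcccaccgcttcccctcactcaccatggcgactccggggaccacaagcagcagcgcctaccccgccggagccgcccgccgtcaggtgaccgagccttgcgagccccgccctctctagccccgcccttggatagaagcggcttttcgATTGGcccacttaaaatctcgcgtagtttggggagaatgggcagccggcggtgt
None of the E2F letters TTTCCCGC, TTTCGCGC, TTTGCCGC or TTTGGCGC, on either strand, nor TTTGAA was found between 250 bases before and 50 bases after this start. A match of letters is a description and not a binding site, and no match says only that these letters are not in this window.

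**Figure D2:**
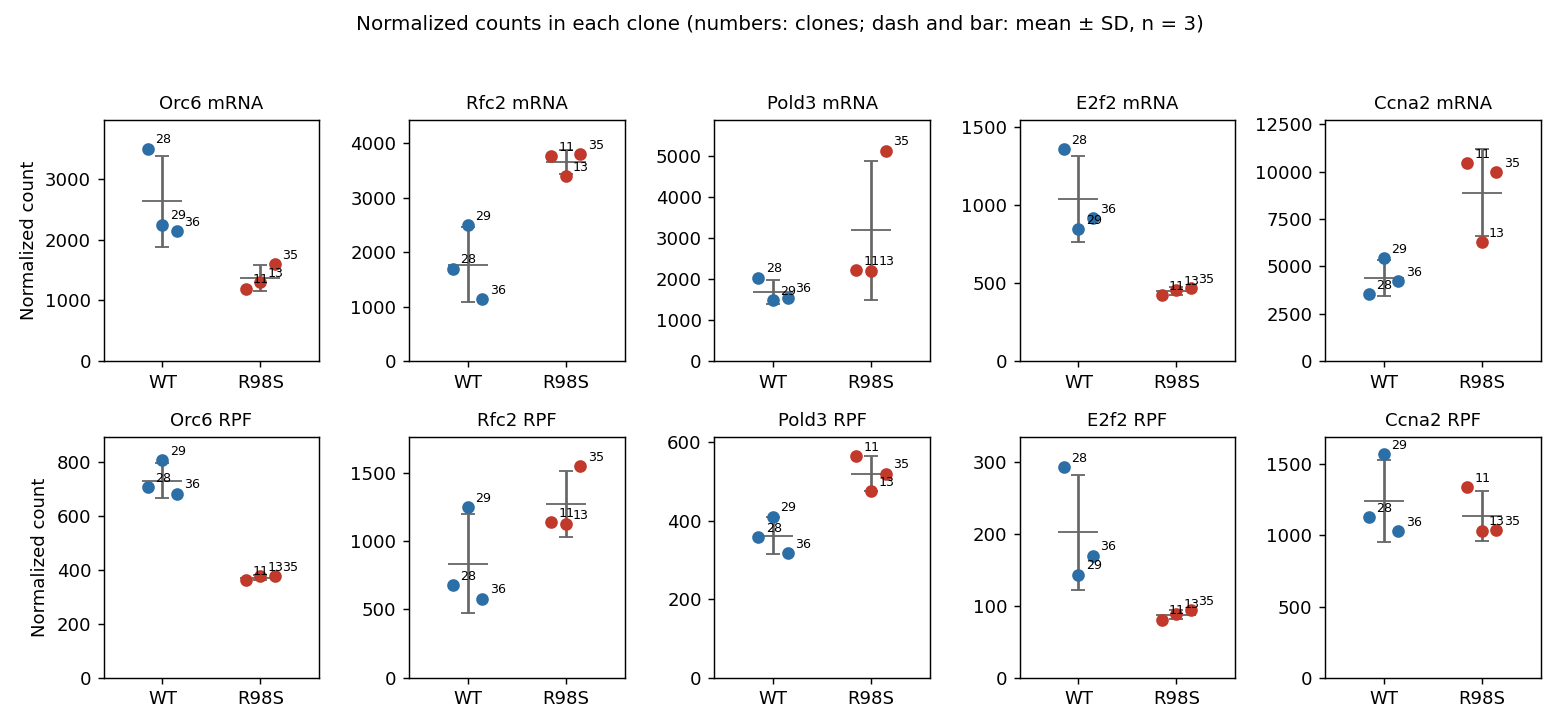
Normalized counts (y axis) of Orc6, Rfc2, Pold3, E2f2 and Ccna2 in each WT and R98S clone (x axis), mRNA above and RPF below; points are clones with their numbers, dashes and bars are the mean ± SD of 3 clones. R98S clones lie below all WT clones for Orc6 and E2f2 in both rows, and R98S clone 35 stands at 5120.3 for Pold3 mRNA.

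The other 5 subunits of the complex, Orc1 to Orc5, had mRNA differences from 0.01 (Orc5) to 0.41 (Orc1), each above 0, while over 16 alternatives 3 to 5 were. The mRNA median of all 6 subunits was 0.22, and 0.09 with chromosome medians removed, where 5 still lay above 0. Orc3 was named after its values were seen, as the subunit besides Orc6 with an unadjusted p under 0.05 in mRNA. Its mRNA was 2409, 2362 and 2692 in R98S clones 11, 13 and 35, and 1842, 2056 and 1837 in WT clones 28, 29 and 36. The clones did not overlap, and the difference of 0.38 missed the threshold (limma adjusted p = 0.236). In RPF the 5 subunits ranged from -0.14 (Orc5) to 0.44 (Orc2), and all 5 overlapped. Orc6 thus had the lowest estimate of the 6 subunits in mRNA and in RPF. Per kb of coding sequence, Orc6 also had the highest RPF level of the complex (759 ± 277, mean ± SD over 6 clones) and Orc1, the largest subunit, the lowest (35.6 ± 6.47).

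Cdc6 and Cdt1 help the origin complex load MCM, and geminin, encoded by Gmnn, holds Cdt1 back. None of these 3 licensing genes passed the test in mRNA, RPF or TE. Cdt1 (chr8:122568015-122573554, + strand) mRNA was 1921, 1748 and 1609 in R98S clones 11, 13 and 35, and 2819.7, 2096 and 1594 in WT clones 28, 29 and 36. The genotypes overlapped, with WT clone 28 above the other clones and WT clone 36 below them all. The log2 difference was -0.27 in mRNA (SE 0.22, limma adjusted p = 0.578) and -0.20 in RPF (0.607 by the same test). Leaving out 1 clone, it ran from -0.47 without WT clone 36 to -0.06 without WT clone 28 in mRNA and from -0.30 without WT clone 36 to -0.04 without WT clone 28 in RPF. Over 16 alternatives it ran from -0.47 to 0.06 in mRNA and from -0.30 to -0.002 in RPF. The mRNA median of the 3 licensing genes was -0.22, and -0.06 with chromosome medians removed. The RPF counts of Cdt1, at 1368, 1670.4 and 1412 in R98S clones, lay within the spread of 2101, 1576 and 1463 in WT clones or just under it. Gmnn had differences of -0.22 in mRNA and -0.07 in RPF, and its clones overlapped in both.

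Cdc6 was named after its values were seen, as 1 of the 3 members with an unadjusted p under 0.05 in TE. Its TE was 0.361, 0.284 and 0.36 in R98S clones 11, 13 and 35, and 0.584, 0.446 and 0.431 in WT clones 28, 29 and 36. Every R98S clone was below every WT clone, but the difference of -0.53 (SE 0.20) missed the threshold (limma adjusted p = 0.629). Its mRNA ranged widely between R98S clones, from 377 in clone 35 to 1046 in clone 13. A stretch of chromosome X resembles 93.4% of the Cdc6 transcript at 95% identity or more, so its counts may miss or share reads.

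The MCM ring of Mcm2 to Mcm7 is the motor of the replicative helicase. Its 6 genes shared a sign in mRNA and in TE without any passing the test. The TE difference is the RPF difference minus the mRNA difference, so the signs in mRNA and in TE are not independent. All 6 mRNA differences were above 0, from 0.01 (Mcm7) to 0.45 (Mcm6), with a median of 0.24. Over 16 alternatives 5 or 6 of them were above 0. All 6 TE differences were below 0, from -0.63 (Mcm4) to -0.20 (Mcm6), with a median of -0.29. They were below 0 in each of 17 alternatives, with medians from -0.44 to -0.09. In RPF 2 lay above 0 and 4 below (median -0.07), and with scaling to total reads 4 lay above and 2 below.

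Mcm3 (chr1:20802968-20820312, - strand) had the smallest mRNA p of the ring. Its mRNA was 8125, 8213 and 7625 in R98S clones 11, 13 and 35, and 6415, 6289 and 5281 in WT clones 28, 29 and 36. The R98S clones lay above the WT clones without overlap, at means of 7988 ± 317 and 5995 ± 622 (SD). The difference of 0.42 (SE 0.16) missed the threshold (limma adjusted p = 0.196) and ran from 0.22 to 0.54 over 16 alternatives. The genes of chromosome 1, where Mcm3 lies, had a median mRNA difference of 0.18. In RPF the WT clones spread around the R98S clones, at 5939, 4109 and 3081 against 4596, 4880.3 and 4814. That difference was 0.17 (limma adjusted p = 0.718) and ran from -0.05 without WT clone 36 to 0.42 without WT clone 28.

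Mcm4 (chr16:15623897-15637400, - strand) showed both signs. Its mRNA was 3927, 4629 and 4673 in R98S clones 11, 13 and 35, all above the 3751, 3684 and 3780.3 in WT clones 28, 29 and 36. Its RPF counts were 2096, 2126 and 2751 in the R98S clones and 4069.6, 3031 and 2263 in the WT clones. The genotypes overlapped in RPF, where WT clone 36 lay below R98S clone 35. In TE the R98S clones stood at 0.534, 0.459 and 0.589 and the WT clones at 1.08, 0.823 and 0.599, without overlap. The log2 differences were 0.23 in mRNA, -0.40 in RPF and -0.63 in TE (SE 0.24), with limma adjusted p of 0.476, 0.366 and 0.629. The RPF difference ran from -0.61 without WT clone 36 to -0.18 without WT clone 28. With estimated library weights the TE difference of Mcm4 passed (limma adjusted p = 0.06), while over all 17 alternatives the adjusted p ran from 0.06 to 1. Library weights raised the calls over all genes too, in TE from 0 higher and 2 lower to 416 and 380. In mRNA they went from 344 and 443 to 1454 and 1505, and in RPF from 300 and 443 to 882 and 917. Passes with library weights given below stand against these counts.

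Promoter stretches of Mcm5, Mcm6, Mcm7 and Cdc6 are printed as examples of licensing and MCM genes with E2F letters. Cdt1 and Mcm3 held such letters too, Mcm2 did not, and Mcm4 and Gmnn had no promoter entry. Whether the letters bear on the mRNA differences was not tested. Each stretch of 61 bases is from RefSeq GRCm38.p6, 5′ to 3′ on the strand of the gene, and capitals mark the E2F letters on either strand. The stretches lie at chr8:75109334-75109394, + strand (Mcm5), chr1:128359718-128359778, - strand (Mcm6), chr5:138172014-138172074, - strand (Mcm7) and chr11:98907987-98908047, + strand (Cdc6).
Mcm5: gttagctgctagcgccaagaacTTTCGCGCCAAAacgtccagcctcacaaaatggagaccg
Mcm6: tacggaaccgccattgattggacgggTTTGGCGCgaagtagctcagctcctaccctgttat
Mcm7: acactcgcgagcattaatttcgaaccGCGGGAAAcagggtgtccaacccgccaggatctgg
Cdc6: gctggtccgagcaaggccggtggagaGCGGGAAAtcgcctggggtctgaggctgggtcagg
In Mcm5 the capitals hold TTTCGCGC and, sharing 4 of its bases, TTTGGCGC read on the other strand. The marked letters begin 47 bases before the start in Mcm6, 165 in Mcm7 and 138 in Cdc6. No E2F 8-mer contains CCAAT or TTTGAA.

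Of the 44 members, 36 had at least 1 promoter in the RefSeq table, with 44 promoters among 32851 in all. No entry was found for Gmnn, Mcm4, Gins1, Gins2, Gins4, Prim2, Pole and Rfc2. The E2F letters were in 15 of the 44 member promoters (34.1%), against 2.26% of all promoters. These belong to Orc1, Orc3, Cdc6, Cdt1, Mcm3, Mcm5, Mcm6, Mcm7, Gins3, Pola1, Pold1, Pold3, Pole2, Rfc3 and Lig1. The CCAAT letters were in 25 of 44 (56.8%, all promoters 37.4%), and the CHR letters TTTGAA in 5 of 44 (11.4%, all promoters 17.9%). The 15 members with E2F letters had median differences of 0.17 in mRNA, -0.15 in RPF and -0.24 in TE. The 21 members with a promoter but without these letters had 0.01, -0.20 and -0.18. In mRNA 12 of the 15 lay above 0 and 3 below, and of the 21 without the letters 11 lay above and 10 below. Among the 15, Mcm3, Mcm6, Orc1, Orc3, Pold1, Pold3 and Lig1 lie on chromosomes 1, 4 and 7. Median mRNA differences over all genes there were 0.18, 0.18 and 0.19. Of the members without the letters, Orc2, Rpa2 and Rrm1 lie there. On chromosome 8, with a median of -0.22, lie Cdt1, Mcm5 and Gins3 with the letters and Orc6 without. The part of these chromosome-wide shifts was not tested, nor was any difference between these sets of genes.

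Mcm10, Cdc45 and the 4 GINS subunits turn the loaded ring into a working helicase. None of the 6 passed the test in any measure. Mcm10 (chr2:4989714-5012791, - strand) mRNA was 1373, 2067 and 1379 in R98S clones 11, 13 and 35, and 1286, 1262 and 1059 in WT clones 28, 29 and 36. The R98S clones were above the WT clones, with clone 13 well above the rest, and the difference was 0.39 (SE 0.21, limma adjusted p = 0.361), or 0.20 without R98S clone 13. In RPF the Mcm10 clones overlapped, at 384, 536 and 500.4 for R98S and 568, 455 and 352 for WT (0.06; -0.12 without WT clone 36 to 0.23 without WT clone 28).

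Gins3 (chr8:95633453-95645060, + strand) had the smallest RPF p of this block. RPF counts of Gins3 were 113, 109 and 73.9 in R98S clones 11, 13 and 35, and 164, 157 and 146 in WT clones 28, 29 and 36. All R98S clones lay below all WT clones, and clone 35 was the lowest. The difference was -0.68 (SE 0.24, limma adjusted p = 0.138). Its mRNA overlapped, at 613, 589.7 and 346 for R98S and 591, 715 and 587 for WT (-0.33, or -0.06 without R98S clone 35). The other GINS subunits, Gins1, Gins2 and Gins4, had mRNA differences from -0.09 to 0.04 and RPF differences from -0.08 to 0.09. The GINS genes Gins2, Gins3 and Gins4 all lie on chromosome 8, and their values did not move as 1 block. Cdc45 had 0.03 in mRNA, -0.40 in RPF and -0.44 in TE, where its clones did not overlap.

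Polymerase alpha and primase, encoded by Pola1, Pola2, Prim1 and Prim2, make the RNA-DNA primers. Prim2 (chr1:33453810-33669795, - strand), the large primase subunit, had mRNA of 1112, 1254 and 1029 in R98S clones 11, 13 and 35, and 747, 1064 and 774 in WT clones 28, 29 and 36. Only WT clone 29 reached into the R98S range, and the difference was 0.41 (SE 0.20, limma adjusted p = 0.318). Over 16 alternatives this mRNA difference ran from 0.20 to 0.57. In RPF Prim2 overlapped, with 458, 480.2 and 423 in R98S clones and 478, 513 and 344 in WT clones (0.05; -0.13 without WT clone 36 to 0.16 without WT clone 29). Pola1 (chrX:93304767-93632155, - strand), the catalytic subunit, had RPF counts of 697, 597 and 786 in R98S clones and 1098, 1008 and 618 in WT clones. WT clones 28 and 29 lay above all R98S clones and WT clone 36 among them, for a difference of -0.35 (SE 0.23, limma adjusted p = 0.424). It ran from -0.61 without WT clone 36 to -0.20 without WT clone 28. Pola1 mRNA was 2054, 2621 and 2548 for R98S and 1788, 3223 and 2239.7 for WT, with a difference of 0.03 (-0.17 without WT clone 28 to 0.26 without WT clone 29). All 4 genes had a TE difference below 0, from -0.38 (Pola1) to -0.01 (Prim1), and over 17 alternatives 3 or 4 of them lay below 0.

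Polymerases delta and epsilon copy the bulk of the genome. Pold3 (chr7:100082111-100121565, - strand), an accessory subunit of delta, had mRNA of 2213, 2202 and 5120.3 in R98S clones 11, 13 and 35, and 2025, 1485 and 1545 in WT clones 28, 29 and 36. The genotypes did not overlap, but R98S clone 35 stood far above the other R98S clones, which were close to WT clone 28. The difference was 0.81 (SE 0.31) with a limma adjusted p of 0.207, and DESeq2 gave 0.05, within a range of 0.05 to 0.401 over 16 alternatives. The mRNA difference ran from 0.40 without R98S clone 35 to 1.01 without R98S clone 13. In RPF Pold3 counts were 564, 475 and 519 in R98S clones and 357, 410.2 and 316 in WT clones. Pold3 was the only member whose R98S clones all lay above the WT clones in RPF, and clone 35 did not stand apart there. That difference was 0.53 (SE 0.18, limma adjusted p = 0.137). It passed with scaling to total reads (limma adjusted p = 0.0968) and with library weights (0.0357), within a range of 0.0357 to 0.357.

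The other polymerase genes, Pold1, Pold2, Pole and Pole2, had mRNA differences from 0.05 to 0.16. All 5 genes of this block lay above 0 in mRNA, and 3 to 5 did over 16 alternatives, with 3 when chromosome medians were removed. All 5 TE differences lay below 0, from -0.51 (Pole) to -0.04 (Pold2), and 3 to 5 did over 17 alternatives. As for MCM, these signs are not independent of those in mRNA, which is subtracted in TE. In RPF the block ranged from -0.40 (Pole) to 0.53 (Pold3).

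Replication factor C, of 5 subunits, opens the PCNA ring and places it around DNA. Rfc2 (chr5:134581366-134601805, + strand), a small subunit, rose in R98S mRNA. Its mRNA was 3759.7, 3395 and 3797 in R98S clones 11, 13 and 35, and 1694, 2495 and 1134 in WT clones 28, 29 and 36. The R98S clones were close together and above every WT clone, while the WT clones spread widely. The means were 3651 ± 222 and 1774 ± 684 (SD, n = 3 each). The limma log2 difference, taken on means of log2 values, was 1.11 (SE 0.26, limma adjusted p = 0.0473), a fold of 2.16 on that scale. RPF counts of Rfc2 were 1141, 1126 and 1552 in R98S clones and 676, 1249 and 578 in WT clones. WT clone 29 lay above R98S clones 11 and 13, and the RPF difference of 0.68 (SE 0.27) missed the threshold (limma adjusted p = 0.194). Its TE was 0.304, 0.332 and 0.409 against 0.399, 0.501 and 0.51, a difference of -0.44 (limma adjusted p = 0.635).

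The mRNA call for Rfc2 passed in 12 of 16 alternatives, with adjusted p from 0.00274 to 0.17 in limma, edgeR or DESeq2. It missed the threshold without R98S clone 11 (limma adjusted p = 0.17), 13 (0.139) or 35 (0.116), or WT clone 36 (0.124). In the same order, the log2 differences of these fits were 1.09, 1.16, 1.08 and 0.83, against 1.11 with all clones. In RPF, Rfc2 passed without WT clone 29 (1.01, limma adjusted p = 0.034) and with library weights (0.0417), within a range of 0.034 to 0.449. Exons of Lat2 on the opposite strand cover 15.1% of the Rfc2 exon bases, and their part in its mRNA counts was not tested.

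Rfc1 (chr5:65261850-65335670, - strand), the large subunit, went the other way in RPF. Counted in RPF, Rfc1 had 430.2, 363 and 534 in R98S clones 11, 13 and 35, and 773, 846 and 501 in WT clones 28, 29 and 36. WT clones 28 and 29 were above all R98S clones, and WT clone 36 lay below R98S clone 35. The difference was -0.66 (SE 0.24, limma adjusted p = 0.147), with mRNA at -0.14 (-0.28 without WT clone 28 to -0.05 without WT clone 29). The RPF difference passed without R98S clone 35 (-0.80, limma adjusted p = 0.0881), without WT clone 36 (-0.89, 0.0936) and with DESeq2 (0.0756), within a range of 0.0756 to 0.44. Rfc3, Rfc4 and Rfc5 had mRNA differences from -0.32 to -0.02 and RPF differences from -0.35 to 0.19. The clamp gene Pcna had -0.02 in mRNA, -0.20 in RPF and -0.18 in TE, and a close copy of 82.8% of its transcript lies on chromosome 19.

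Replication protein A coats the unwound single strands. Rpa2 (chr4:132768332-132778752, + strand), its middle subunit, had mRNA of 1126, 1111 and 1268 in R98S clones 11, 13 and 35, and 2459.8, 1295 and 1255 in WT clones 28, 29 and 36. WT clone 28 stood apart, the other WT clones were level with R98S clone 35, and the difference was -0.44 (SE 0.26, limma adjusted p = 0.414). It ran from -0.61 without WT clone 36 to -0.13 without WT clone 28. Its RPF counts were 569.6, 576 and 629.7 in R98S clones and 798, 713 and 644 in WT clones, without overlap. That difference was -0.28 (SE 0.17, limma adjusted p = 0.397). Rpa1, the large subunit, had 0.07 in mRNA and -0.26 in RPF, and Rpa3, the small subunit, -0.31 and 0.02.

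Fen1 removes the flaps of Okazaki fragments and DNA ligase I, encoded by Lig1, joins them. Lig1 (chr7:13277283-13311433, + strand) mRNA was 3044, 3450.3 and 3257 in R98S clones 11, 13 and 35, and 2452, 2989 and 2430.1 in WT clones 28, 29 and 36. The R98S clones lay just above the WT clones, for a difference of 0.31 (SE 0.16, limma adjusted p = 0.356). Over 16 alternatives this mRNA difference ran from 0.14 to 0.41, and the genes of chromosome 7, where Lig1 lies, had a median of 0.19. In RPF Lig1 was 1388, 1539.6 and 1780.0 for R98S and 2359.6, 1800.1 and 1281 for WT, with WT clone 28 highest and WT clone 36 lowest (-0.17; -0.40 without WT clone 36 to 0.04 without WT clone 28).

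Fen1 (chr19:10199132-10204169, - strand) had few counts, down to 19 reads in an RPF library and 20 in an mRNA library. Its RPF counts were 30.8, 26.8 and 31.9 in R98S clones 11, 13 and 35, and 40.1, 51 and 34.3 in WT clones 28, 29 and 36. The R98S clones were below the WT clones, for a difference of -0.46 (SE 0.31, limma adjusted p = 0.436). In mRNA the clones overlapped, at 114, 98.3 and 106 for R98S and 53.7, 126 and 98.7 for WT, and WT clone 28, the shallowest mRNA library, was lowest. The TE of Fen1 was 0.272, 0.273 and 0.302 in R98S clones and 0.747, 0.404 and 0.347 in WT clones (-0.73, limma adjusted p = 0.629). The TE difference was -0.40 without WT clone 28 and the mRNA difference -0.08 without WT clone 28, the latter against 0.27 with all clones. Exons of Gm10143 and Tmem258 on the opposite strand cover 84.2% of the Fen1 exon bases, so its low counts need not reflect its expression.

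Ribonucleotide reductase, of the subunits Rrm1 and Rrm2, and thymidine kinase 1 supply deoxynucleotides. All 3 genes had RPF differences below 0, with 2 or 3 below over 16 alternatives, and none passed the test. Rrm2 (chr12:24708241-24714146, + strand), the subunit that limits the enzyme in S phase, had mRNA of 4348, 4222 and 3659 in R98S clones 11, 13 and 35, and 6206, 4625 and 4929.9 in WT clones 28, 29 and 36. In RPF the Rrm2 counts were 2519.7, 2642 and 2252 in R98S clones and 4749, 3719 and 2959.7 in WT clones. In both assays each R98S clone lay below each WT clone, which among the members held otherwise only for Orc6. The differences were -0.36 in mRNA (SE 0.17, limma adjusted p = 0.322) and -0.60 in RPF (SE 0.20, 0.128 by the same test). The mRNA difference was -0.23 without WT clone 28. DESeq2 called the RPF difference of Rrm2 (DESeq2 adjusted p = 0.0549), within a range of 0.0549 to 0.286. A close copy of 37.8% of its transcript lies on chromosome 13. Rrm1 had 0.35 in mRNA and -0.15 in RPF, and Tk1 -0.27 and -0.48.

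Taken clone by clone, the members' RPF values did not divide by genotype, and their TE values did so by a small margin only. For each member the deviation of a clone from the mean of the 6 clones was computed on the log2 scale, and the median over the 44 members was taken. In mRNA this median was -0.04, 0.11 and 0.03 in R98S clones 11, 13 and 35, and -0.02, 0.03 and -0.13 in WT clones 28, 29 and 36. In RPF it was -0.13, -0.07 and -0.03 in the R98S clones and 0.26, 0.19 and -0.17 in the WT clones. WT clones 28 and 29 were high, and WT clone 36 lay below all R98S clones. In TE the medians were -0.12, -0.18 and -0.08 for R98S and 0.21, 0.14 and -0.04 for WT, so the R98S clones lay below the WT clones without overlap, WT clone 36 being closest to them. Medians over all genes were between -0.03 and 0.02 in every library and measure.

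**Figure D3:**
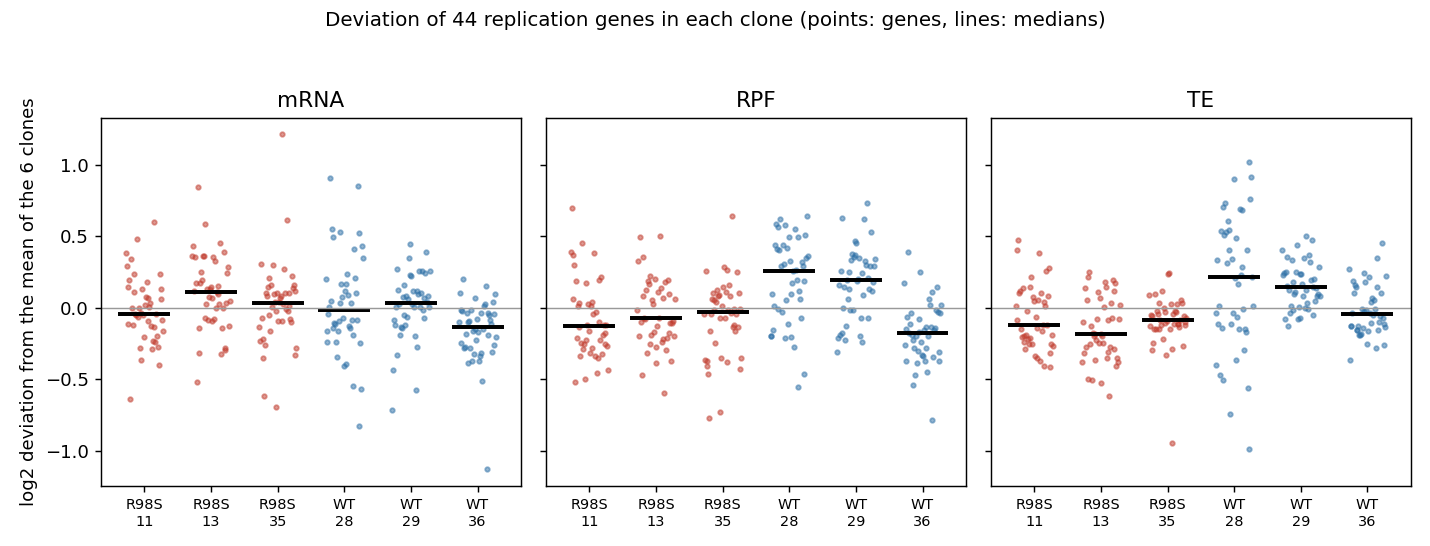
Log2 deviation of each of the 44 replication genes from its mean over the 6 clones (y axis) in each clone (x axis), for mRNA, RPF and TE; points are genes and lines are medians. In RPF the medians of WT clones 28 and 29 are 0.26 and 0.19, and that of WT clone 36 is -0.17, below those of the 3 R98S clones.

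The TE median of the members stayed below 0 in each of 17 alternatives. It ran from -0.13 with scaling to total reads, where the median of all genes moved to 0.08, to -0.32 without WT clone 36. Members minus all genes, it ran from -0.19 to -0.30. Between 30 and 38 members lay below 0. In RPF the member median ran from -0.23 without WT clone 36 to -0.03 with library weights, and in mRNA from 0.00447 to 0.13. With no replicate block, that is, both assays as unpaired libraries, 0 members were called; this alternative leaves each TE estimate, and so the median of -0.21, the same by construction and is counted among the 17 only for its p-values. WT clone 28, whose mRNA library was the shallowest, had the highest TE median. Without it the members' median was -0.19. Unadjusted p-values under 0.05 for TE were found for 0 members without R98S clone 13, 1 without R98S clone 11, 5 without R98S clone 35, 4 without WT clone 28, 2 without WT clone 29 and 8 without WT clone 36. The 8 members without overlap in TE, all with R98S below, were Cdc6, Mcm4, Cdc45, Gins3, Prim2, Pcna, Rpa1 and Fen1. Over all 9043 genes, 666 had R98S below and 674 had R98S above.

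The share of each library that the 44 genes took together shows how the groups lie on another scale. In mRNA it was 0.546, 0.6 and 0.554% in R98S clones 11, 13 and 35, and 0.511, 0.53 and 0.464% in WT clones 28, 29 and 36. The R98S clones all lay above the WT clones, at 0.567 ± 0.0292% and 0.502 ± 0.0339% (SD, n = 3). A share of summed counts is set mostly by abundant genes such as Mcm3, Mcm6 and Rrm1. It does not show a rise across the members, whose median mRNA difference was 0.06, with 16 of 44 below 0. In RPF the share was 0.748, 0.799 and 0.783% in R98S clones and 0.853, 0.884 and 0.645% in WT clones. WT clones 28 and 29 were highest and WT clone 36 lowest, so the genotypes overlapped (0.777 ± 0.026% and 0.794 ± 0.13%).

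Levels were compared between genes per length, as normalized RPF counts per kb of coding sequence without the 20 codons at its ends that were left out of counting. Over the 6 clones Rrm2 had the highest mean level of the 44 members (2829 ± 843, mean ± SD over 6 clones), followed by Pcna (2381 ± 339) and Mcm3 (1923 ± 398). Rrm2 lay above Mcm3 in each of the 6 clones. Pcna lay above Rrm2 in R98S clones 13 and 35, and the R98S means of Pcna (2230.1) and Rrm2 (2226) were alike, so the order of these 2 rests on the WT clones. Fen1 (33.2 ± 8) and Orc1 (35.6 ± 6.47) were lowest. The median of the 44 members was 446. Within the MCM ring, whose subunits stand in equal numbers, the level ran from 629 ± 145 (Mcm2) to 1923 ± 398 (Mcm3) in the means of 6 clones, a ratio of 3.06. Mcm5 lay above Mcm3 in R98S clone 13 and in WT clones 29 and 36, and its WT mean (1890.2) was above that of Mcm3 (1842), so the order of these 2 is not resolved. The ratio of highest to lowest was 1.5 in replication protein A, 2.67 in GINS and 2.84 in polymerase alpha-primase. In replication factor C it was 6.19, between Rfc1 (172 ± 57.9) and Rfc2 (1068 ± 370.2), or 9.72 between their means in R98S clones and 3.99 in WT clones. The origin recognition complex had the widest ratio, 21.3, between Orc1 and Orc6, or 13.3 in R98S clones and 30.6 in WT clones.

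**Figure D4:**
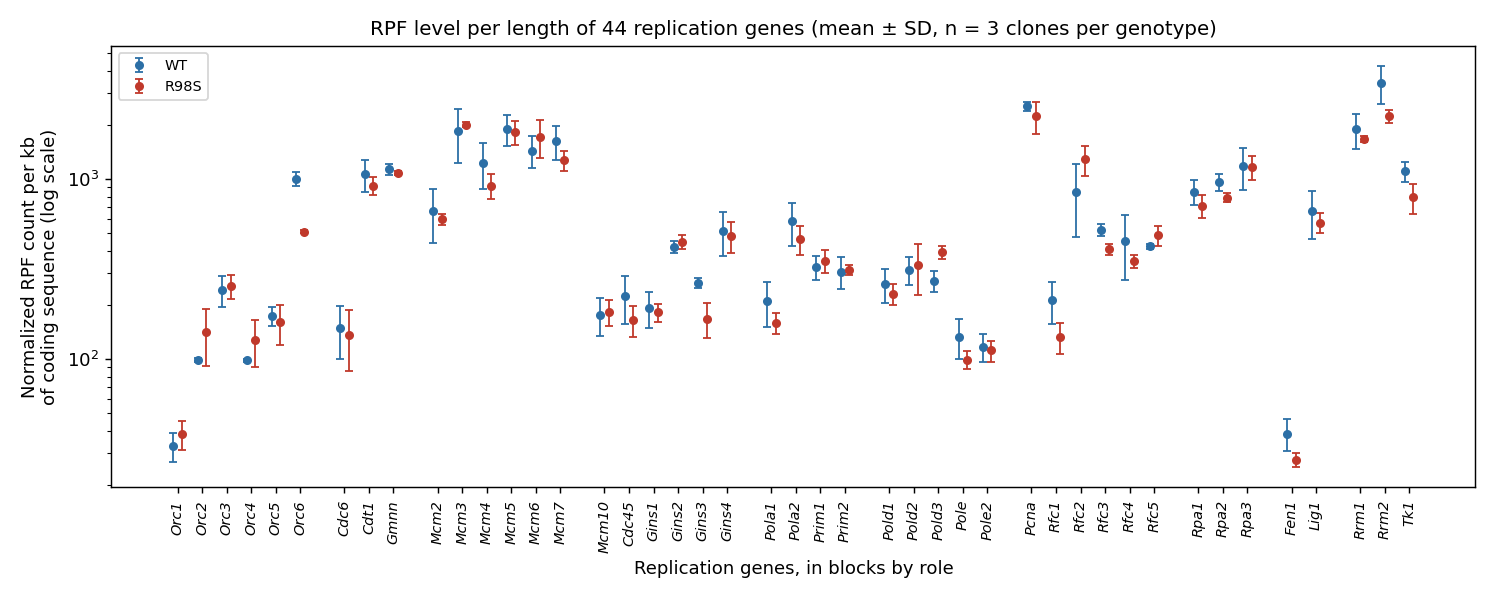
Normalized RPF count per kb of coding sequence (y axis, log scale) for the 44 replication genes (x axis, in blocks by role); points and bars are the mean ± SD of 3 WT or 3 R98S clones. For Orc6 the R98S mean is 511 and the WT mean 1006, while Fen1 and Orc1 are lowest in both genotypes.

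Some counts could hold reads of other loci. Of the 44 transcripts, 9 had a stretch of at least 100 bp elsewhere in the genome at 95% identity or more, and in Cdc6, Mcm7, Pcna and Tk1 at least 50% of the transcript was so copied. Exons of 14 members share bases with a gene on the opposite strand, most in Fen1 and in Gins2 (67.3%). With separate cutoffs, 8 members were left out, Cdc6, Mcm7, Pcna, Rfc5, Rrm2 and Tk1 for copied bases and Fen1 and Gins2 for shared bases. Orc2, with 29.8% of its exon bases shared, was kept. The medians of the remaining 36 were 0.10 in mRNA, -0.09 in RPF and -0.21 in TE. In TE 1 of the 36 had an unadjusted p under 0.05 (limma, all genes 7.85%), and 5 had no overlap between the genotypes (all genes 14.8%). Orc6 and Rfc2 are among the 36.

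Of 42 other replication genes, which act in firing, fork protection, chromatin assembly and nucleotide metabolism, none passed in mRNA (limma, 0 higher and 0 lower). An unadjusted p under 0.05 was found for 5 of the 42 (all genes 17.9%). The smallest mRNA p-values were those of Top2b, a DNA topoisomerase (0.60, or 0.40 without WT clone 28, limma adjusted p = 0.149), and Mcmbp, an MCM-binding protein (0.49, 0.151 by the same test). DESeq2 put both under the threshold, at 0.0825 and 0.0991, within ranges of 0.0519 to 0.406 and 0.0581 to 0.427. In RPF 1 of 42 was lower (all genes 4.62%), Pold4, the smallest subunit of polymerase delta. Its RPF counts were 130.3, 183 and 186 in R98S clones 11, 13 and 35, and 262, 372 and 250.4 in WT clones 28, 29 and 36. The clones did not overlap, and the log2 difference was -0.82 (SE 0.23, limma adjusted p = 0.0822). It passed in 10 of 16 alternatives, with adjusted p from 0.0287 to 0.268. Leaving out any clone except R98S clone 35 lost the call, with limma adjusted p of 0.268 without R98S 11, 0.189 without R98S 13, 0.13 without WT 28, 0.181 without WT 29 and 0.13 without WT 36. In the same order, the log2 differences of these fits were -0.65, -0.89, -0.89, -0.64 and -0.92. Total-read scaling lost the call too (-0.71, limma adjusted p = 0.149). In TE none passed (limma, 2 with an unadjusted p under 0.05, all genes 7.85%). The smallest TE p-values were those of Wdhd1, a fork protein (-0.52), and Top1, a topoisomerase (-0.82, or -0.51 without WT clone 28). Top1 passed with library weights (limma adjusted p = 0.0567), within a range of 0.0567 to 1. The medians of the 42 were -0.03 in mRNA, -0.12 in RPF and -0.16 in TE. Over the alternatives they ran from -0.09 to 0.01 in mRNA, -0.25 to -0.01 in RPF and -0.16 to -0.05 in TE.

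Among 22 regulators of the G1/S transition, 1 was higher and 1 lower in mRNA (all genes 3.03% and 3.91%). E2f2, which encodes an E2F transcription factor, had mRNA of 421, 455 and 468 in R98S clones 11, 13 and 35, and 1356, 845 and 913 in WT clones 28, 29 and 36. The R98S clones were close together and far below the WT clones, and the gene fell by 1.18 on the log2 scale (SE 0.22, limma adjusted p = 0.0172). This call passed in 16 of 16 alternatives. In RPF the counts were 80.8, 88.8 and 94 in R98S clones and 293, 144 and 170.0 in WT clones (-1.13, SE 0.28, limma adjusted p = 0.049). The RPF call was lost without R98S clone 11 (limma adjusted p = 0.161), R98S 13 (0.167), WT 28 (0.13) or WT 36 (0.105), within a range of 0.00335 to 0.167. In the same order, the RPF log2 differences of these fits were -1.07, -1.14, -0.83 and -1.22.

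Ccna2, which encodes the S-phase cyclin A2, had mRNA of 10442, 6262 and 9960.3 in R98S clones 11, 13 and 35, and 3537, 5422 and 4202 in WT clones 28, 29 and 36. All R98S clones were above all WT clones, with R98S clone 13 nearest to them (log2 difference 1.00, SE 0.24, limma adjusted p = 0.0516). The call was lost without R98S clone 11 (limma adjusted p = 0.22), R98S 35 (0.134) or WT 36 (0.155), within a range of 0.0017 to 0.22. The log2 differences in these fits were 0.87, 0.90 and 0.98. Its RPF counts overlapped, at 1338, 1034 and 1036 for R98S and 1130.1, 1572 and 1030.5 for WT (-0.12). The TE of Ccna2 was 0.128, 0.165 and 0.104 in R98S clones and 0.32, 0.29 and 0.245 in WT clones, without overlap. That difference of -1.12 missed the threshold in limma (adjusted p = 0.517), passed in DESeq2 (0.00165) and passed with library weights (0.0141), within a range of 0.00165 to 1. In TE limma called none of the 22 regulators, with 3 at an unadjusted p under 0.05 (all genes 7.85%). The smallest p after Ccna2 was that of Rbl2, a relative of the retinoblastoma gene (-1.01, limma adjusted p = 0.59). Rbl2 passed in DESeq2 (0.0717) and with library weights (0.0114), within a range of 0.0114 to 1.

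Of 22 genes of G2 and mitosis, none passed in mRNA (limma, 3 with an unadjusted p under 0.05, all genes 17.9%). The mitotic kinase gene Plk1 (0.55, limma adjusted p = 0.128) and the checkpoint target Cdc20 (0.43, 0.204 by the same test) had the smallest p. Plk1 passed in DESeq2 (adjusted p = 0.0604), and in limma with library weights (0.0257) and without R98S clone 35 (0.0939), within a range of 0.0257 to 0.396. Cdc20 passed with library weights (limma adjusted p = 0.038), within a range of 0.038 to 0.559. In RPF 1 of 22 was lower (all genes 4.62%), Ccnb1, which encodes cyclin B1, at 556, 533 and 558 in R98S clones 11, 13 and 35, and 1042, 818 and 704 in WT clones 28, 29 and 36. The clones did not overlap, and the log2 difference was -0.62 (SE 0.19, limma adjusted p = 0.0969). It passed in 7 of 16 alternatives and in none of the 6 that left out a clone, with adjusted p from 0.0449 to 0.279. Over those 6 fits the log2 difference ran from -0.75 to -0.47. In TE none passed (limma, 1 with an unadjusted p under 0.05, all genes 7.85%). The smallest TE p-values were those of the proliferation marker Mki67 (-1.05) and the kinase gene Ttk (-0.45). Mki67 passed in DESeq2 (adjusted p = 0.0871) and with library weights in limma (0.0247), and Ttk with library weights (0.0965), within ranges of 0.0247 to 1 and 0.0965 to 1. The RPF median of the 22 was -0.31 (-0.45 to -0.12 over 16 alternatives), against -0.14 for the replication members (-0.23 to -0.03). In RPF 17 of the 22 lay below 0 (16 to 19 over 16 alternatives), against 48.8% of all genes. For 8 of the 22 the R98S clones all lay below the WT clones, against 1222 of all 9580 genes. The TE median of the 22 was -0.23 (-0.39 to -0.08 over 17 alternatives), close to the members' -0.21. In TE 18 of the 22 lay below 0 (15 to 20 over 17 alternatives). The G1/S regulators had a TE median of 0.04, with 10 of 22 below 0 (7 to 12 over 17 alternatives, with a median below 0 in 3 of them).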

How the data were processed

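The values cover 12 libraries of 6 Ba/F3 clones, an RPF and an mRNA library of each. The authors deposited 1 table of signal values per assay, which are gene counts divided by the DESeq2 size factor of each library. In each library 100% of values above 0 were whole multiples of 1 read (tolerance 0.1), so whole reads were recovered for the count tests. According to the authors' methods, reads were aligned to mm10 with TopHat2 2.0.11 and kept at a mapping quality of 10 or more; mRNA reads were counted over exons. RPF reads were counted over coding sequence without its first 15 and last 5 codons, and 3 technical replicates were merged.

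The tests used limma 3.58.1 (R 4.3.3) on log2 of the value plus 1 and moderated the variance along a trend; genes whose normalized counts averaged under 10 in the 6 libraries were left out. TE was tested as the log2 ratio within a clone, where no library of the 12 was under 10. P-values were two-sided and adjusted by Benjamini-Hochberg over all genes tested, at the study's threshold of 0.1. RPF and mRNA libraries were paired by clone number; deviations from the genotype means correlated across 9043 genes, which are not independent replicates, with a mean r of 0.519 over 6 clones, from 0.218 (WT clone 28) to 0.681. DESeq2 1.42.0 on recovered reads called 591 genes higher and 692 lower in mRNA, 469 and 626 in RPF and 16 and 38 in TE. edgeR 4.0.16 called 365 and 440, 336 and 472, and 0 and 3. Babel, which the study used for TE, was not run.

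Alternatives were pseudocounts of 0.5 and 5, no filter and a filter 5 times as strict, DESeq2, edgeR, TMM and total-read scaling, estimated library weights, removal of chromosome medians, leaving out each clone and, for TE, no replicate block. Every clone's value is given for members past the threshold and for the member of each role with the smallest p in mRNA or in RPF, 15 members in all, and the other 29 are given by range, count or single values; Orc3 and Cdc6 among them have clone values and were chosen after these were seen. From each other list those past the threshold are named, or else the 2 with the smallest p. One marker of the cell type list is not reported here. The members and lists were chosen with earlier results of these data known. Genes were located with GENCODE mouse release 21 (GRCm38), and copies were sought with blastn 2.17.0. Promoters came from RefSeq GRCm38.p6. Python 3.11.15 and matplotlib 3.10.9 made tables and figures.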

Additional observations from a re-analysis of the deposited data

How the results depend on the processing

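With 3 clones per genotype and 1 mRNA library of 6617457 reads, small differences are not resolved, and the counts of members past the threshold are small enough for 1 gene to change them. The log2 differences of named genes kept their sign and side of the threshold in 306 of 336 comparisons with an alternative for mRNA, 253 of 287 for RPF and 337 of 356 for TE. For the others, and for the counts and medians below, the cause was not tested, apart from fewer samples where a clone was left out.

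Members higher in mRNA numbered 2 with DESeq2 (Pold3, Rfc2) and 6 with library weights (Orc3, Mcm3, Mcm6, Prim2, Pold3, Rfc2), and members lower 0 with chromosome medians removed. Over all 11344 genes DESeq2 called 591 higher and library weights 1454, against 344 in the main test. With chromosome medians removed 407 genes were lower, against 443. Members lower in RPF numbered 3 with DESeq2 (Orc6, Rfc1, Rrm2) and 2 with chromosome medians removed (Orc6, Tk1), and members higher 1 with total-read scaling (Pold3) and 2 with library weights (Pold3, Rfc2). Over all 9580 genes DESeq2 called 626 lower and removal of chromosome medians 421, against 443 in the main test. Total-read scaling called 448 higher and library weights 882, against 300. Members lower in TE numbered 3 with library weights (Mcm4, Rfc2, Fen1). Over all 9043 genes that setting called 416 higher and 380 lower in TE, against 0 and 2 in the main test. Leaving out 1 clone gave 0 to 1 members higher and 0 to 1 lower in mRNA, 0 to 1 higher and 1 to 2 lower in RPF, and medians in TE from -0.32 to -0.19. Total-read scaling moved the median RPF difference of all genes to 0.12 from 0.01, and the calls over all genes from 300 higher and 443 lower to 448 and 317. With no replicate block the TE median of members is -0.21 by construction, since the design is balanced, and only p-values can differ.

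Among named genes these log2 differences changed sign. In mRNA they were Cdt1 with library weights (0.0579), Pola1 with DESeq2 (-0.00775), with library weights (-0.0781) and without R98S 13 (-0.0361), R98S 35 (-0.0158), WT 28 (-0.17) or WT 36 (-0.00426), and Fen1 without WT 28 (-0.0785). In RPF they were Mcm3 without WT 36 (-0.0529), Mcm10 with chromosome medians removed (-0.0283) and without R98S 13 (-0.0361) or WT 36 (-0.12), Prim2 with chromosome medians removed (-0.12) and without WT 36 (-0.13), and Lig1 without WT 28 (0.0399). In TE they were Orc6 with total-read scaling (0.0319) and without R98S 35 (0.0618), WT 29 (0.12) or WT 36 (0.0321), Cdt1 without R98S 13 (-0.0194), Pold3 without R98S 35 (0.12), and Rpa2 with library weights (-0.0626) and without WT 28 (-0.0690). Over the fits without 1 clone the log2 differences ran, in mRNA, for Pola1 -0.17 to 0.26 and Fen1 -0.0785 to 0.53; in RPF, for Mcm3 -0.0529 to 0.42, Mcm10 -0.12 to 0.23, Prim2 -0.13 to 0.16 and Lig1 -0.40 to 0.0399; in TE, for Orc6 -0.30 to 0.12, Cdt1 -0.0194 to 0.19, Pold3 -0.54 to 0.12 and Rpa2 -0.0690 to 0.31. Members given by range changed sign too: over the mRNA alternatives 3 to 5 of the origin recognition complex, 5 to 6 of MCM and 3 to 5 of polymerases delta and epsilon lay above 0.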
